A study of Danio rerio with 35 samples.

Results

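Zebrafish embryos mutant for pou5f1 and injected against Nanog and SoxB1 (triple loss) were compared with embryos in which transcription itself was blocked. The aim was to find which genes were transcribed in triple loss. The comparison used 4 of the 35 libraries of the series, all of rRNA-depleted, strand-specific total RNA: triple loss and alpha-amanitin at 4 hours post fertilization (hpf), and the same conditions at 6 hpf, with 1 library each. Every library was made from 5 pooled whole embryos. The triple-loss embryos were MZpou5f1, that is, mutant for both the maternal and the zygotic copies of pou5f1 (allele hi349Tg, homozygous), and had received, as 1-cell embryos, morpholinos against Nanog and against SoxB1 (antisense oligonucleotides that here block translation). The amanitin embryos were of the TUAB strain, carried none of these losses and received alpha-amanitin, an inhibitor of RNA polymerase II, at the 1-cell stage. WT total RNA at 2 hpf (1 library), 4 hpf (1) and 6 hpf (3), also TUAB, gave the reference levels. Of single-gene entries there were 27151 in the deposited exon data and 24124 in the intron data, after entries that join overlapping genes were left out. The other conditions cited below were, in TUAB, Nanog MO, SoxB1 MO, Nanog + SoxB1 MO, U1U2 MO and cycloheximide, and, in MZpou5f1, the mutant alone, with 1 morpholino, or with both and rescue mRNA.

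Early embryos live on messages stored in the egg, and their own genome is switched on in a burst that in the fish falls before gastrulation. Pou5f1 (symbol pou5f3 in the annotation), Nanog and the SoxB1 proteins are maternally supplied transcription factors that open and activate many of the first zygotic genes. Because amanitin stops new polymerase II transcripts, a gene that stays higher in triple loss than in amanitin has been transcribed, or its message has decayed more slowly. Introns help to separate the 2 readings, since stored messages are spliced and intron reads come mostly from new pre-mRNA.

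The label of the triple loss held for pou5f3, which stood at 0.235 RPKM at 4 hpf and 0.646 at 6 hpf, against 119.9 and 125 in amanitin. The morpholinos block translation, so the levels of nanog and sox19b RNA check nothing. Nanog and SoxB1 protein was not measured here, so how complete their loss was is not known from these data. Of the 6 factor genes limma called pou5f3 lower and sox19a, SOX3 and SOX2 higher at 6 hpf, and 2 of these 3 with libraries centred. SOX2 was at 1.42 RPKM against 0.136 (limma adjusted p 0.0447). Its call was lost with libraries centred (0.0643), the pseudocount doubled (0.096), no filter (0.111) and the joint fit (0.0587). It was also lost without WT replicate 1, WT replicate 2 or either Nanog + SoxB1 MO library. The amanitin label held too: intron RPKM summed over all genes was 747 at 4 hpf and 842 at 6 hpf, against 10517 in WT at 4 hpf and 18283 to 18696 in WT at 6 hpf. Germ plasm messages marked the material as whole embryos (buc, the germ plasm organizer, at 262 RPKM in amanitin and 418 in triple loss at 4 hpf). RPKM tables carry no read counts, so absolute depth is unknown, and the smallest step of the values put depth, with WT at 4 hpf as 1, at 1.45 and 0.582 in amanitin and at 0.747 in both triple-loss libraries. In whole embryos, fewer cells of a type and less RNA per cell cannot be told apart.

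In triple loss many genes were still read, and most of them had messages stored in the egg, as in WT. Among genes with an exon entry and introns called higher than in amanitin, 1869 of 2364 at 4 hpf and 3228 of 4256 at 6 hpf had a stored message. Of the genes newly read in WT, by the intron rule given below, 1844 of 2565 and 4187 of 5763 had one. Summed intron RPKM in triple loss was 7545 at 4 hpf and 11333 at 6 hpf, roughly an order of magnitude above amanitin at both stages. In numbers of genes, 2765 had introns at 0.5 RPKM or more in triple loss at 4 hpf, against 243 in amanitin and 2975 in WT. The 6 hpf numbers were 4706 in triple loss, 258 in amanitin and 5949 to 6242 in WT. The median intron level of genes with a stored message (5 RPKM or more in WT at 2 hpf) was 0.140 RPKM in triple loss and 0.124 in WT at 4 hpf, and 0.324 against 0.434 to 0.482 at 6 hpf, with 0.009 in amanitin at both stages.

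A set of newly transcribed genes was taken from WT alone: introns at 0.5 RPKM or more at that stage and at least 4-fold above WT at 2 hpf. It had 2565 members at 4 hpf, of which 1848 (72.1%, 95% Wilson interval 70.3 to 73.8%) were at least 4-fold above amanitin in triple loss and 405 were under 2-fold above it. Of the 5763 members at 6 hpf, 4003 (69.5%, 68.3 to 70.6%) were at least 4-fold above and 786 under 2-fold. These intervals describe the size of the set only. Among all introns at the minimum in either library, 84.3% were called higher and 0.713% lower at 4 hpf, and 89.5% higher and 0.673% lower at 6 hpf. Amanitin lay near 0, so a share of that size follows once triple loss has introns at all, and the WT set, which does not use the triple-loss library, is the one to read. At 6 hpf, limma on all 11 total RNA libraries called 5401 of 7935 introns higher in triple loss (68.1%) and 27 lower (0.34%). With libraries centred on stored messages, which by construction removes the shift these introns share, it called 1554 higher and 243 lower, and without a filter 365 lower. Its spread came from WT (n = 3) and Nanog + SoxB1 MO (n = 2), and the single libraries were assumed to vary like these, which are labelled only as separate samples.

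Intron output in triple loss differed between genes with and without a stored message. At 4 hpf, 1533 of 1844 members with a stored message (83.1%) were at least 4-fold above amanitin, and 1480 (80.3%) were within 2-fold of WT or above it. Of the 500 members with under 1 RPKM of exon signal at 2 hpf, the strictly zygotic genes, 177 (35.4%) were at least 4-fold above amanitin and 242 (48.4%) under 2-fold. Median intron levels in the stored-message class were 0.014 RPKM in amanitin, 1.01 in triple loss and 1.14 in WT, and in the strictly zygotic class 0, 0.144 and 1.47. By 6 hpf the stored-message class had 3233 of 4187 members (77.2%) above amanitin and the strictly zygotic class 439 of 1023 (42.9%). All 4 shares count genes of single libraries, and the difference between the classes has no replicate test.

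**Figure D1:**
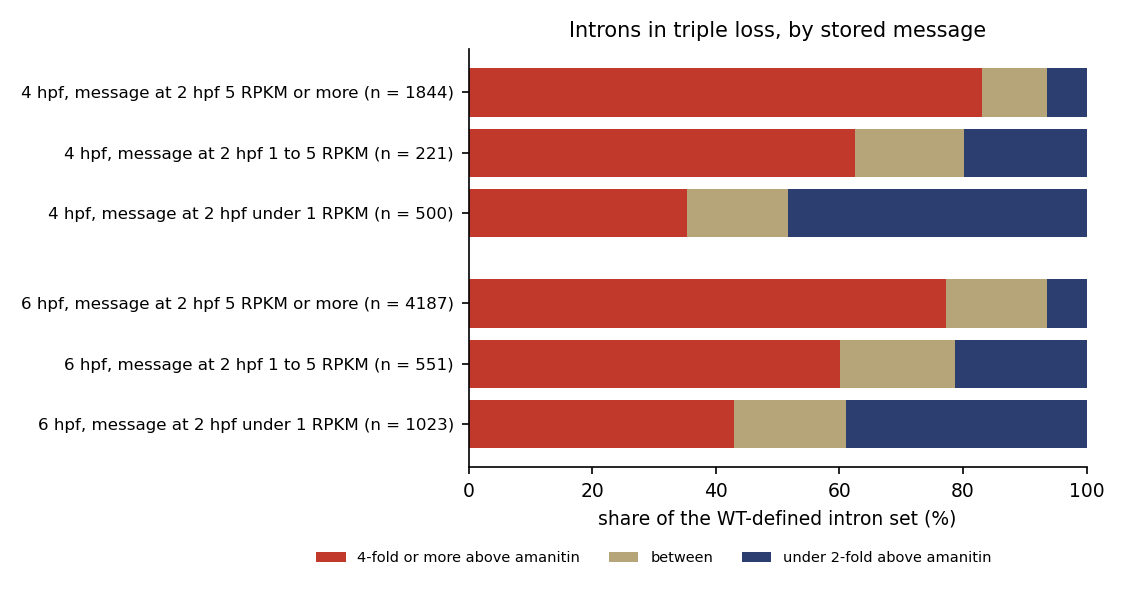
Share of the WT-defined intron set (%, horizontal axis) at least 4-fold above amanitin (red), between (tan) and under 2-fold above amanitin (blue) in triple loss, by stage and by the exon level of the same gene in WT at 2 hpf, with the number of genes on the left. The red share falls from 83.1% to 35.4% at 4 hpf and from 77.2% to 42.9% at 6 hpf as the stored message gets lower.

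The 10 highest intron ratios at 4 hpf among stored-message genes included genes of chromatin and RNA-binding proteins. Introns of h3f3a, which encodes the replacement histone H3.3, stood at 0.077 RPKM in amanitin, 142 in triple loss and 280.1 in WT at 4 hpf, while its exons differed little (753 in amanitin, 868 in triple loss). Introns of khdrbs1a, an RNA-binding protein of the Sam68 family, stood at 0.119, 54.5 and 141 RPKM in the same order, and those of hmga1a, an architectural chromatin protein, at 0.015, 22.3 and 62.4. In these 3 genes triple loss was far above amanitin and below WT.

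Other stored-message genes had more intron signal in triple loss than in WT. Introns of cldn7b, a claudin of tight junctions, were listed at 0 in amanitin and stood at 33.7 RPKM in triple loss against 15.9 in WT at 4 hpf. At 6 hpf they stood at 0.084, 28.9 and 5.28 (limma log2 difference between triple loss and amanitin 7.30 ± 0.32 SE, adjusted p 0.000173). Introns of RRM2, a subunit of the enzyme that makes deoxyribonucleotides, were listed at 0 in amanitin and stood at 22.2 in triple loss and 9.21 in WT at 4 hpf. The same order held for SLC25A5, the mitochondrial ADP/ATP carrier, with 0, 21.5 and 10.8. In the 6 hpf libraries the stress-induced DDIT4 had introns listed at 0 in amanitin, at 12.8 in triple loss and at 18.6 in WT (limma adjusted p 0.000163), and the RNA-binding rbmx 0, 12 and 21.3 (adjusted p 0.000163).

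Exons of strictly zygotic genes gave the second measure. The exon set took genes under 1 RPKM in WT at 2 hpf and at 5 RPKM or more in WT at the stage, 241 genes at 4 hpf and 926 at 6 hpf (WT mean of 3 libraries). At 4 hpf, 73 members (30.3%, Wilson interval 24.8 to 36.4%) were at least 4-fold above amanitin in triple loss on log2(RPKM + 0.5), 45 lay between 2-fold and 4-fold, and 123 (51.0%) were under 2-fold. The fold rule on that scale understates the ratio of low genes. Among all entries at 1 RPKM or more in either library, 5.63% (769 of 13669) were past 4-fold higher and 1.13% lower. The median difference was 0.93 on the log2 scale in the set and 0.16 over all entries tested. Set medians were 0.058 RPKM in amanitin, 0.887 in triple loss and 13.3 in WT, and 28 members (11.6%) were both above amanitin and within 2-fold of WT or higher.

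Of the 926 members at 6 hpf, 446 (48.2%, 45 to 51.4%) were at least 4-fold above amanitin, 175 lay between and 305 (32.9%) were under 2-fold, against a background of 12.5% higher (1825 of 14561) and 1.15% lower. The median difference was 1.90 (0.29 over all entries tested), and 190 members (20.5%) were within 2-fold of WT as well as above amanitin. The exon fit with limma called 3398 of 16242 entries higher (20.9%) and 900 lower (5.54%) in triple loss. Of the 446 members past 4-fold, 430 passed limma at adjusted p under 0.05, as did 95 of the 175 between. Of 304 fitted members under 2-fold 4 were called higher and 7 lower. Limma here tested the same difference of the same 2 libraries that defined the classes, so these counts were largely built in and add no separate support. With libraries centred on stored messages, which moves the median log2 difference of this fit by -0.19, the limma calls became 2880 higher and 1602 lower, and without 1 or the other Nanog + SoxB1 MO library the lower calls fell to 447 and 444.

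**Figure D2:**
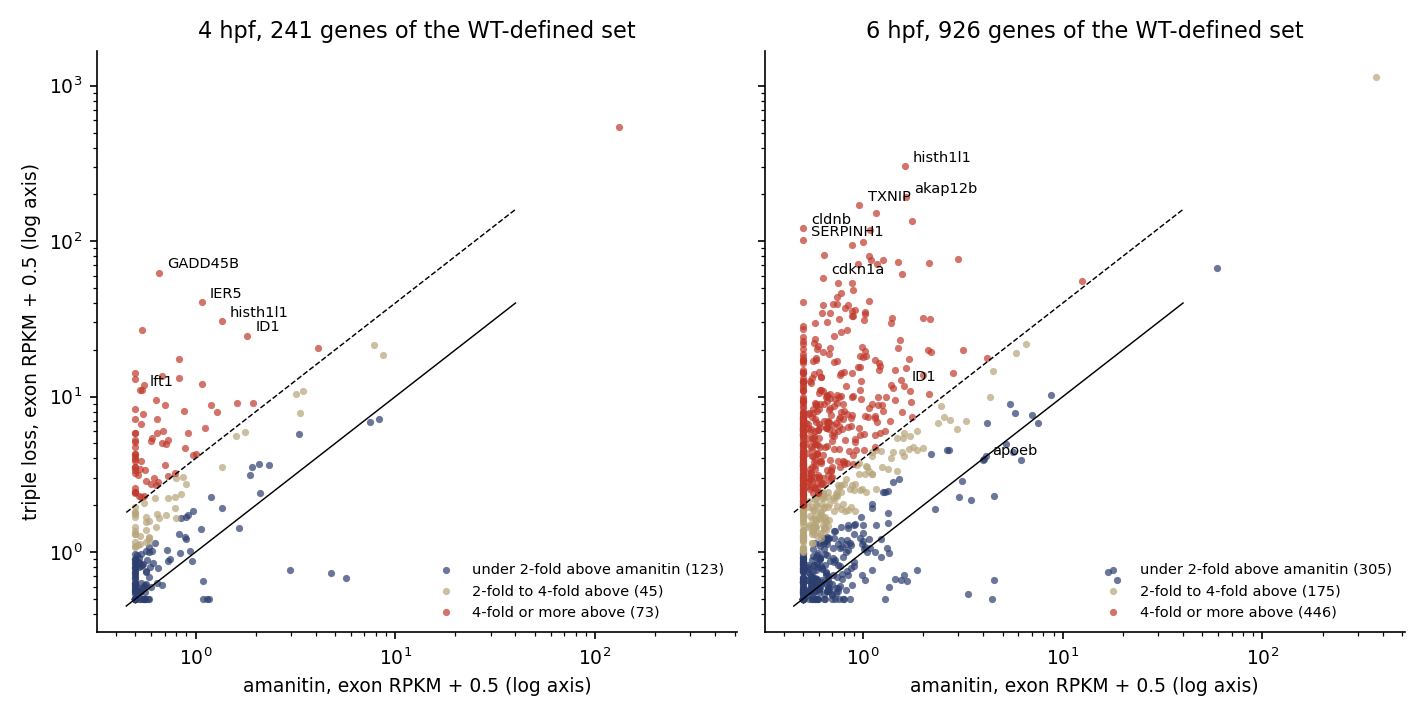
Exon RPKM + 0.5 in amanitin (horizontal, log axis) and triple loss (vertical, log axis), 1 point per gene of the WT-defined exon set, at 4 hpf (241 genes) and 6 hpf (926 genes). The solid line marks equal values and the dashed line 4-fold; red genes lie on or above 4-fold, 73 at 4 hpf and 446 at 6 hpf, and most blue genes are near 0.5 in both libraries.

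The 15 largest ratios among strictly zygotic genes at 4 hpf included genes of stress and growth arrest. Of the GADD45B pair, whose products act in growth arrest and DNA repair, ENSDARG00000013576 was at 58 RPKM in WT, 0.153 in amanitin and 62.3 in triple loss. Its introns were at 18.9, 0.075 and 26.1 in the same order, so triple loss was at or above WT in both measures. ENSDARG00000027744 went from 0.038 RPKM in amanitin to 26.3 in triple loss, above WT at 15.2. The immediate early genes IER5 and IER5L, both without an intron entry, did the same: IER5 was at 0.573 in amanitin, 40.2 in triple loss and 28.7 in WT, and IER5L at 0.177, 13 and 10.5. The linker histone gene histh1l1 stood at 0.853, 30.0 and 7.57 RPKM, almost 4 times the WT level in triple loss. For isg15, a ubiquitin-like interferon-stimulated gene, the values were 0.05, 11.5 and 9.02.

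Patterning genes of the dorsal side were also among these 15. In noto, the homeobox gene of the notochord, triple loss had 12.5 RPKM and WT 36.6, with amanitin listed at 0. Lft1, an antagonist of Nodal, was at 0.038 RPKM in amanitin, 10.5 in triple loss and 8.46 in WT. The homeobox repressor dharma, which starts the organizer, was listed at 0 in amanitin and was at 6.71 in triple loss and 10.1 in WT, and the Wnt antagonist dkk1b was at 0.046, 7.24 and 8.97. Lft1 was above WT in triple loss and the other 3 genes below it, while amanitin was at or near 0 for all 4.

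Wnt11f2, a noncanonical Wnt ligand of gastrulation movements, was at 0.323 RPKM in amanitin, 16.9 in triple loss and 17.3 in WT at 4 hpf, and its introns were at 0, 19.6 and 14.7. Krt18a.1, a keratin of the enveloping layer, was kept at a lower level (0.029, 10.5 and 53.8), as were the scaffold protein gene akap12b (0.2, 8.39 and 97.4) and the BMP target ID1 (1.32, 24.2 and 154). For these last genes the call against amanitin goes with a level well below WT.

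Among the zygotic genes under 2-fold above amanitin at 4 hpf, the 10 most abundant in WT included regulators and the mir-430 precursor. The mir-430 hairpin, the precursor of a microRNA known for clearing maternal RNA, stood at 1406 RPKM in WT, 0.694 in amanitin and 1.76 in triple loss, and at 769 in triple loss given rescue mRNA. The gene nnr was at 212 RPKM in WT, 0.084 in amanitin and 0 in triple loss. Asb11, which regulates Notch signalling, was at 95.2 in WT and 0.302 in triple loss, with amanitin listed at 0, and vgll4l, a cofactor of TEAD factors, at 92.9 and 0.121. Introns gave the same picture: those of asb11 and vgll4l, at 29.6 and 38.2 RPKM in WT, were listed at 0 in triple loss.

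Klf17, a Krüppel-like factor of the hatching gland and early surface layer, was at 77.6 RPKM in WT, 0.244 in amanitin and 0.406 in triple loss. The lipid carrier gene apoeb was at 62.3, 0.396 and 1.17, and inka1a, an inhibitor of PAK kinases, at 61.4, 0.028 and 0.054. The others of the 10 most abundant lost genes were si:dkey-188c14.4, znf1127 and dleu7, with 57.7 to 119 RPKM in WT and 0.057 to 0.326 in triple loss. In the rescued triple loss, all 10 were between 22.4 RPKM (si:dkey-188c14.4) and 769 (mir-430).

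**Figure D3:**
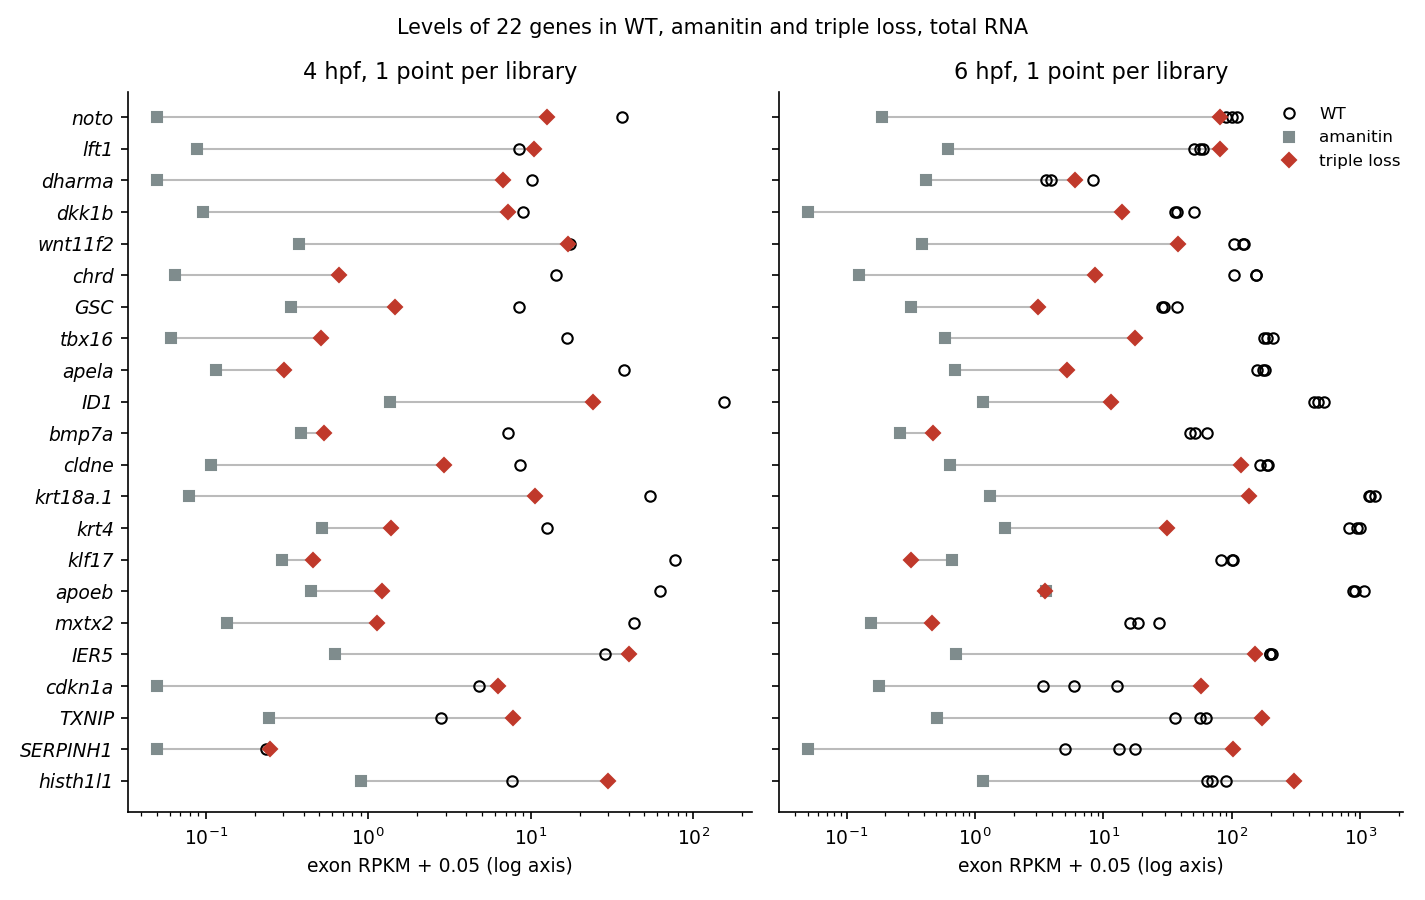
Exon RPKM + 0.05 (log axis) of 22 genes in WT (open circles, 1 library at 4 hpf and 3 at 6 hpf), amanitin (grey squares) and triple loss (red diamonds), with a grey line from amanitin to triple loss. For noto, lft1, IER5 and cldne triple loss lies near WT at 6 hpf, and for klf17 and apoeb it lies at or below amanitin at that stage.

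The 15 largest ratios of the zygotic set at 6 hpf included 3 claudin genes. Cldnb, a claudin of epithelial junctions, was listed at 0 in amanitin and was at 121 RPKM in triple loss, above WT at 65 to 92.8 (limma log2 difference 7.92 ± 0.27 SE, adjusted p 1.5e-05). Cldne went from 0.584 in amanitin to 117 in triple loss (WT 164 to 191), and cldn3d from 0 to 40.2 (WT 4.83 to 8.17), both past limma at adjusted p 8.63e-06 and 8.9e-05. Both cldnb and cldn3d exceeded every WT library, and cldne was below all 3.

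Several other kept genes also stood above all 3 WT libraries at 6 hpf. SERPINH1, the collagen chaperone, was listed at 0 in amanitin and was at 102 RPKM in triple loss against 4.95 to 17.4 in WT, and its introns stood at 19.5 against 1.83 (log2 exon difference 7.67 ± 0.74, limma adjusted p 0.000816). TXNIP, an inhibitor of thioredoxin, was at 0.456, 171 and 35.6 to 63.1 in amanitin, triple loss and WT (7.49 ± 0.36, limma adjusted p 6.12e-05), and histh1l1 at 1.11, 303 and 63.8 to 89.1 (7.55 ± 0.24, limma adjusted p 1.45e-05). In these 3 genes triple loss exceeded the highest WT library by more than the WT range, but the difference from WT was not tested.

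Isg15 was at 0.494, 98.8 and 6.81 to 63.7 RPKM in amanitin, triple loss and WT at 6 hpf, with a wide error (6.64 ± 1.23, limma adjusted p 0.00972, 0.089 with no filter). Its introns were at 3.79 RPKM in amanitin and 0.981 in triple loss, and so did not follow its exons. Ftr82, a fish TRIM gene, was at 0.378, 94.6 and 108 to 168, and hmgn6, a nucleosome-binding protein gene, at 0.447, 70.9 and 133 to 188, both below WT in triple loss. Noto (81.3 RPKM in triple loss, 0.14 in amanitin, limma adjusted p 8.63e-06) and IER5 (151 and 0.666, adjusted p 8.63e-06) were again among the 15 largest ratios, as were lft1, krt18a.1, akap12b and isg15.

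Poly(A) libraries of the triple loss held the same leading genes. At 6 hpf, cldnb was at 114 RPKM in poly(A) triple loss (67.2 in poly(A) WT), SERPINH1 at 156 (24.2) and TXNIP at 177 (37.6). Over the whole exon set at 6 hpf, 276 of the 446 kept genes (61.9%) were at 5 RPKM or more in that library, against 39 of the 175 genes between and 17 of the 305 lost genes (5.57%). Amanitin had no poly(A) library, so this describes the triple loss alone.

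Of the 10 most abundant zygotic genes under 2-fold above amanitin at 6 hpf, 2 were keratins. Apoeb was at 874 to 1068 RPKM in WT, 3.54 in amanitin and 3.48 in triple loss (log2 difference -0.02 ± 0.30, limma adjusted p 0.979). The keratin genes krt92 and krt97, at 299 to 439.5 and 297 to 376 in WT, were at 0.505 and 0.551 in triple loss and 0.65 and 0.516 in amanitin. The cathepsin gene ctsll was at 0.312 in triple loss and 0.268 in amanitin (WT 333 to 342). Introns of krt97 and ctsll were listed at 0 in both.

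SLC7A8, an amino acid transporter, was at 0.71 in triple loss, 0.731 in amanitin and 308 to 319 in WT. Stm, which builds the otoliths, was lower in triple loss (0.099 RPKM) than in amanitin (0.845), with WT at 435 to 462 (log2 difference -1.17 ± 0.19, limma adjusted p 0.0066). ZIC2, a neural zinc finger gene, was called higher on a small residue: 3.8 RPKM in triple loss, 1.69 in amanitin and 235 to 281 in WT (0.97 ± 0.19, limma adjusted p 0.0116). The remaining 3 of the 10, lrwd1, sult6b1 and afp4, were at 2.33, 0.87 and 0 RPKM in triple loss, against WT means from 270.0 to 319.

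Lists of genes by role were read against the backgrounds of all tested or fitted entries above (5.63% past 4-fold at 4 hpf, 20.9% called higher by limma at 6 hpf, median log2 differences 0.16 and 0.29). Fold-rule shares and medians of the lists count only genes at 1 RPKM or more in either library. Amanitin was near 0 for zygotic genes, so lost members mostly drop out and these shares and medians run high. Counts within the zygotic set, taken from WT, do not depend on this minimum. They are read against the whole exon set. Of that set 30.3% were above 4-fold and 51.0% under 2-fold at 4 hpf, and 48.2% and 32.9% at 6 hpf. Of 10 dorsal organizer and Nodal genes that reached 1 RPKM in triple loss or amanitin at 4 hpf, 6 were at least 4-fold higher in triple loss, with a median log2 difference of 2.63. At 6 hpf, 8 of 12 were, the median was 3.44, and limma called 8 of 15 fitted genes higher. Within the zygotic set at 6 hpf, 7 of the 11 members were above 4-fold and 3 under 2-fold, against 48.2% and 32.9% of the whole set.

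The members differed. Ndr1, a Nodal ligand, was at 0.353 RPKM in amanitin, 17.1 in triple loss and 6.43 to 12.4 in WT at 6 hpf (4.36 ± 0.42, limma adjusted p 0.000826). The Nodal antagonist lft2 was at 0.096, 20.7 and 28.7 to 43.9 (adjusted p 0.000133). Chrd, the BMP antagonist of the organizer, was called as well but at a small part of WT (0.075, 8.54 and 104 to 154, adjusted p 0.000308), and GSC, an organizer homeobox gene, likewise (0.267, 3.04 and 28.7 to 37.1, adjusted p 0.00384).

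Dharma at 6 hpf was at 0.367 RPKM in amanitin and 5.99 in triple loss (limma adjusted p 0.0359), a call lost without WT replicate 1 or WT replicate 2 (adjusted p 0.0312 to 0.0564 over the 5 fits that leave out 1 replicate), and also lost with the pseudocount doubled (0.051), with no filter (0.162) and in the joint fit (0.0568). FOXD3, foxa3 and lhx1a, transcription factor genes of the organizer and its derivatives, were at 0.061, 0.675 and 1.09 RPKM in triple loss and 0.157, 0.153 and 2.1 in amanitin, and were not called. Tdgf1, the Nodal co-receptor with a stored message, was at 26.4 in triple loss and 16.4 in amanitin and was not called either.

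In the list of ventral BMP and Wnt genes 3 of 6 were past 4-fold at 4 hpf (median 1.52). Within the zygotic set 1 of 2 members was above 4-fold at 4 hpf. At 6 hpf 1 of 5 members was above 4-fold and 4 were under 2-fold. Limma called 3 of 12 higher at 6 hpf, and 2 of 7 tested by the fold rule were past 4-fold (median 1.08). The pair was ID1 at 11.3 RPKM against 1.1 in amanitin and 431 to 520.2 in WT (adjusted p 0.000143), and SMAD7, an inhibitor of TGF-beta signals, at 5.65 against 0.267 and 17.3 to 21.6 (adjusted p 0.000739). Bmp7a and BMP4, the BMP ligands, were at 0.422 and 0.462 in triple loss and 0.209 and 0.091 in amanitin, with WT means of 54.3 and 26.6. The posterior homeobox gene eve1, at 144 in WT, was at 0.388 and 0.1. No test compared this list with the organizer list.

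Among mesoderm, endoderm and FGF genes, 1 of 7 was past 4-fold at 4 hpf and 8 of 15 at 6 hpf, and limma called 11 of 20 higher at 6 hpf. Of 4 members of the zygotic set at 4 hpf, 0 were above 4-fold and 3 under 2-fold. Of 13 members at 6 hpf, 5 were above 4-fold and 3 under 2-fold. Etv5b, an effector of FGF signals with a stored message, was at 19.9 RPKM in amanitin, 81.3 in triple loss and 108 to 114 in WT, and its introns at 5.67 equalled WT (5.68). The T-box gene tbx16 was at 0.537, 17.7 and 176 to 209 (adjusted p 7.4e-05), and the FGF ligand entry ENSDARG00000003399, named FGF8, at 0.104, 6.16 and 23.7 to 32.8 (adjusted p 0.000527). Both were above amanitin and below every WT library.

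DUSP6, an FGF feedback phosphatase, was not called (0.177, 1.1 and 78.1 to 116, limma adjusted p 0.0505, 0.0323 to 0.0844 with 1 replicate left out). Of the 11 neuroectoderm genes only 4 were at the minimum at 4 hpf, and 3 of these were past 4-fold. Their zygotic set had 1 of 2 members above 4-fold at 4 hpf. At 6 hpf it had 1 of 5 above 4-fold and 3 under 2-fold. Limma called 2 of 8 higher at 6 hpf, GBX1 (5.48 RPKM against 0.074, WT 7.21 to 10.7) and the retinoic acid hydroxylase CYP26A1 (5.8 against 0.94, WT 48.2 to 86.3, adjusted p 0.0114, 0.0781 with no filter). Her5, at 128 RPKM in WT at 4 hpf, was at 1.15 in triple loss and 0.295 in amanitin.

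The list of the enveloping layer, the outer epithelium of the embryo, held called and uncalled genes among both regulators and keratins. Of its 27 genes 8 were at the minimum at 4 hpf and 14 at 6 hpf, and 4 and 11 of these were past 4-fold (median 3.36 at 6 hpf). Within the zygotic set at 6 hpf, 9 of 17 members were above 4-fold and 8 under 2-fold, against 48.2% and 32.9% of the whole set. Limma called 14 of 25 genes higher at 6 hpf. The transcription factor genes grhl3 and ovol1a were at 18.4 and 19.4 RPKM in triple loss, 0.174 and 0.821 in amanitin and 38.3 to 51.5 and 19 to 26.2 in WT (limma adjusted p 0.0001 and 0.0002). The regulators klf17, klf2b, KLF3 and DLX3, at 0.067 to 0.73 RPKM in triple loss and 0 to 0.609 in amanitin, were not called (adjusted p 0.228 to 0.902). The keratins krt18a.1, krt4 and krt8 were called at 135, 31.2 and 29.1 RPKM, against 1.25, 1.67 and 10.4 in amanitin and WT means of 1213, 919 and 750.5. Cyt1, krt5, krt17, krt92 and krt97, keratins of the same layer, were at 0.064 to 0.551 RPKM in triple loss and 0.165 to 0.65 in amanitin, with WT means of 106 to 384.

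The yolk syncytial layer, which feeds and patterns the blastoderm, had few calls. At 6 hpf 1 of 7 tested genes was past 4-fold, and limma called 2 of 19 higher. Of the 13 members of the zygotic set 12 were under 2-fold above amanitin, against 32.9% of the whole set. The exception was the lipid carrier gene apoc1, at 0.333 RPKM in amanitin, 7.25 in triple loss and 460.0 to 548 in WT (limma adjusted p 0.000333). The regulators mxtx1, mxtx2 and HNF4A were at 0.118, 0.414 and 0.026 in triple loss and 0.076, 0.106 and 0.201 in amanitin, and the lipid transfer gene MTTP, at 182 to 207 in WT, was listed at 0 in triple loss. Whether the layer itself formed was not measured.

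**Figure D4:**
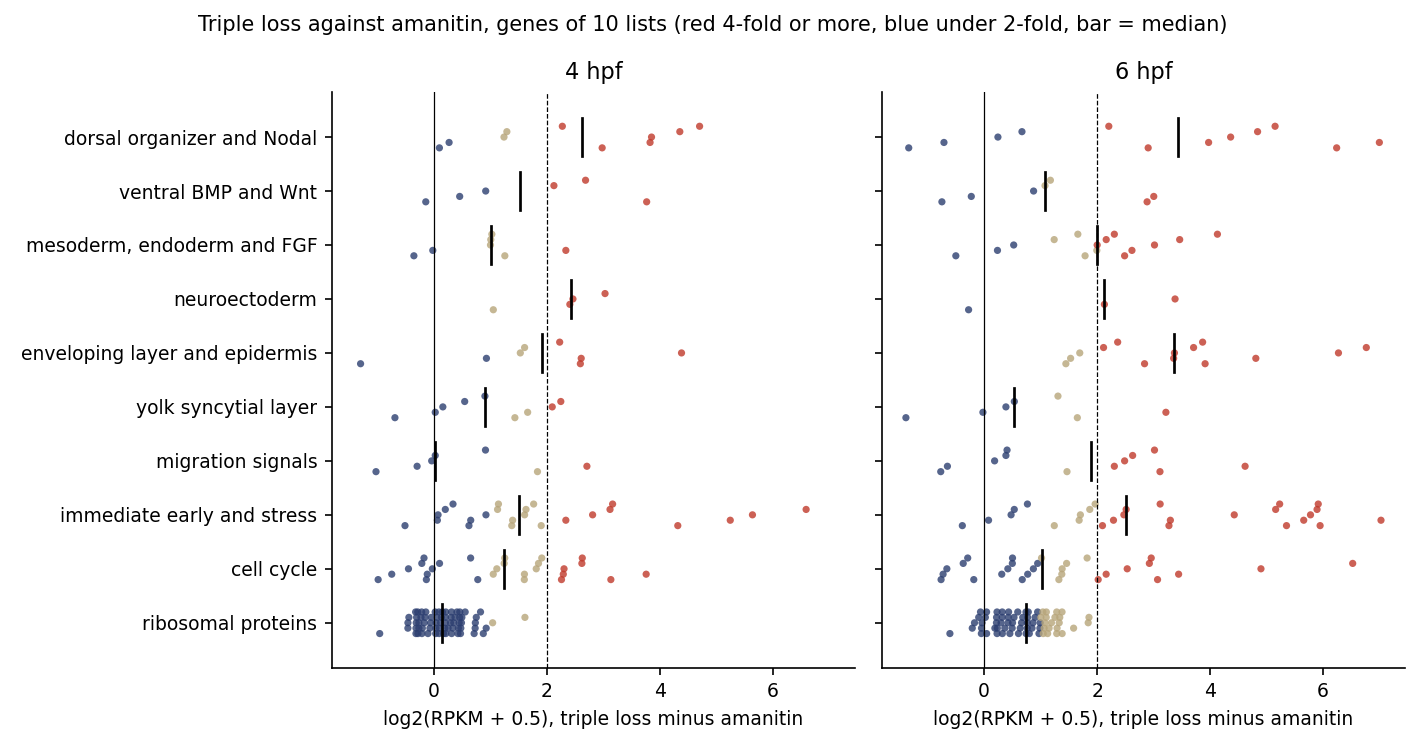
Log2 difference between triple loss and amanitin (RPKM + 0.5, horizontal axis) of each gene of 10 lists that reached 1 RPKM in either library, at 4 and 6 hpf, with a bar at the median; the dashed line marks 4-fold. At 6 hpf the medians of the organizer, enveloping layer and immediate early lists lie above 4-fold. So do those of neuroectoderm (2.13, only 3 genes drawn) and, barely, of mesoderm, endoderm and FGF (2.00). Those of the yolk syncytial layer and ribosomal protein lists lie below 2-fold. Genes under 1 RPKM in both libraries are not drawn and do not enter the medians.

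Signals that guide migrating cells were kept in part at 6 hpf (6 of 12 genes past 4-fold, limma 6 higher and 1 lower of 13). All 4 members of the zygotic set were above 4-fold. The chemokine scavenger receptor entry ENSDARG00000058179, named ACKR3, was at 0.07 RPKM in amanitin, 13.5 in triple loss and 22.9 to 32.1 in WT (adjusted p 0.000121), and the Apelin receptor gene aplnrb at 0.61, 8.48 and 50.2 to 68.6 (adjusted p 0.00131). Its ligand apela was at 0.651, 5.19 and 157 to 182 (adjusted p 0.00038). The 2 entries named CXCR4, a chemokine receptor, differed: ENSDARG00000041959 was called at 9.38 against 1.1, and ENSDARG00000057633 was at 1.46 against 0.982 and was not.

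Stress response genes were among those most above amanitin, and several exceeded WT. Cdkn1a, the cell cycle inhibitor p21, was at 0.128 RPKM in amanitin, 57.3 in triple loss and 3.32 to 12.6 in WT (6.53 ± 0.72, limma adjusted p 0.00135). SESN1, a sestrin with a stored message, was at 12.5, 159.8 and 2.93 to 7.93, and its introns at 0.111, 9.12 and, as a WT mean, 0.21. The apoptosis gene bbc3 was at 0.319, 21.3 and 2.17 to 7.63 (adjusted p 0.00405).

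In all 3 of these genes triple loss lay above every WT library at 6 hpf. Sesn3, another sestrin gene, was at 35 RPKM against 0.38 in amanitin and below WT (137 to 182). The triple-loss embryos carried morpholinos, and the amanitin and WT embryos none. The loss of the factors and other effects of the morpholinos therefore cannot be told apart here.

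The immediate early and stress list had 8 of 24 genes past 4-fold at 4 hpf and 17 of 27 at 6 hpf (median 2.51), and limma called 21 of 29 higher, 19 with libraries centred. Within the zygotic set 6 of 7 members were above 4-fold at 4 hpf and 7 of 7 at 6 hpf. JUN, part of the AP-1 factor, was at 0.373 RPKM in amanitin, 32.3 in triple loss and 4.19 to 5.41 in WT (adjusted p 0.000218), and ier2b at 0.275, 45.6 and 10.2 to 13.5 (adjusted p 5.11e-05). DDIT3, the CHOP factor of the unfolded protein response, was listed at 0 in amanitin and was at 19.9 in triple loss and 1.53 to 3.69 in WT. BTG1, which restrains proliferation, was at 0.609, 39.2 and 18.9 to 22.5, with introns at 0.085, 11.4 and a WT mean of 7.34. CEBPB, a leucine zipper factor, was called but below WT (0.186, 34.1 and 99.5 to 116).

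Housekeeping genes with large stored pools showed the change in introns and little of it in exons. Ribosomal protein introns were at least 4-fold higher in 58 of 59 tested genes at 4 hpf and 66 of 67 at 6 hpf, against 84.3% and 89.5% of all tested introns, with list sums of 3.12, 149 and 213 RPKM in amanitin, triple loss and WT at 4 hpf and 8.83, 359 and 762 at 6 hpf. No ribosomal protein exon was past 4-fold at either stage (0 of 69 tested), but limma called 40 of 69 higher at 6 hpf, 31 with libraries centred, with a median difference of 0.74. Summed ribosomal protein exons were 8123 RPKM in amanitin, 11330 in triple loss and 18290 in WT at 6 hpf. Splicing factor introns were past 4-fold in 15 of 15 genes at 4 hpf and 15 of 16 at 6 hpf, near those backgrounds, and exons in 2 and 3 of 20.

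Further lists are read against the same backgrounds, 5.63% and 12.5% past 4-fold at 4 and 6 hpf. Heat shock genes were past 4-fold in 1 of 10 and 3 of 11 cases at 4 and 6 hpf, histone genes, of which h3f3a, H2AZ2 and others are replacement variants, in 1 and 2 of 14, translation factors in 1 of 67 and 3 of 69, and RNA polymerase II and chromatin genes in 1 and 0 of 16. Limma at 6 hpf called 1 higher and 1 lower of 11 heat shock genes, 6 and 1 of 14 histones, 14 and 9 of 70 translation factors (10 and 16 with libraries centred), 7 and 1 of 19 splicing factors, and 4 higher of 16 polymerase genes. Germ plasm genes were past 4-fold in 1 of 16 at 4 hpf, and limma called 1 higher and 3 lower of 16. Nuclear receptor and RNA polymerase III regulators were past 4-fold in 0 of 4 and 1 of 7 cases. Of the microRNA hairpins, precursors of short regulatory RNAs, 5 of 15 were past 4-fold at 4 hpf (median log2 difference 1.84) and 16 of 25 at 6 hpf (2.65), and limma called 8 of 43 higher, 6 with libraries centred. Most of the 88 hairpins did not reach the minimum and do not enter these fold shares. Summed over all 88, amanitin had 270 RPKM and triple loss 245 at 4 hpf, and 269 and 297 at 6 hpf. The limma counts of these lists are read against 20.9% higher and 5.54% lower of all fitted entries. A list meant for small nucleolar RNA held only snorc, a protein-coding cartilage gene matched by its symbol. Snorc was past 4-fold lower at 4 hpf (log2 difference -2.68) and not called by limma at 6 hpf.

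Across the genome the same held for stored messages. At 4 hpf 1869 of 2209 tested introns of stored-message genes (84.6%) were at least 4-fold higher in triple loss, against 84.3% of all tested introns. Of these genes 90 (4.82%) had exons past 4-fold too, against 8.80% of all genes with higher introns. The share of all tested exon entries was 5.63%. By 6 hpf it was 3228 of 3594 introns (89.8%, against 89.5%) and 304 genes (9.42%, against 20.8% of all genes with higher introns and 12.5% of all tested exon entries). The intron shares of stored-message genes were thus near those of all tested introns. Their exon shares were below those of all genes with higher introns. Where the message was under 1 RPKM at 2 hpf, 74 of 297 genes with higher introns (24.9%) had higher exons at 4 hpf and 418 of 632 (66.1%) at 6 hpf.

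Of the cell cycle genes 9 of 29 were past 4-fold at 6 hpf, and limma called 13 of 30 higher and 2 lower. Ccnb3, a B-type cyclin, was at 4.33 RPKM in amanitin, 52 in triple loss and 114 to 116 in WT (adjusted p 4.54e-05), fbxo5, an inhibitor of the anaphase-promoting complex, at 14.9, 119.5 and 162 to 165 (adjusted p 5.57e-05), and the mitotic kinase gene CDK1 at 7.28, 58.6 and 50.6 to 62.5 (adjusted p 0.000209). Their introns were at 2.59, 5.21 and 3.29 in triple loss and at most 0.161 in amanitin. The cell cycle inhibitor gene cdkn1ca, nearly without stored message, was at 0.812, 38.7 and 43.1 to 56.7.

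Exon values were also higher in triple loss at many genes with little intron signal. Introns under 0.5 RPKM do not show that a gene was silent, since the median intron of stored-message genes, 0.140 RPKM in triple loss and 0.009 in amanitin at 4 hpf, is below that level. Of the 769 exon entries past 4-fold at 4 hpf, 702 had an intron entry, and 208 of these (29.6%) also had introns past 4-fold, while in 487 (69.4%) introns were under 0.5 RPKM in both libraries. At 6 hpf 885 of 1648 (53.7%) had introns past 4-fold and 729 (44.2%) had them under the minimum. In 304 stored-message genes called at 4 hpf with introns under the minimum, median exon levels were 24.4 RPKM in WT at 2 hpf, 12.7 in WT at 4 hpf, 4.62 in amanitin and 30.0 in triple loss. In 295 of these 304 amanitin was at least 2-fold below WT at 2 hpf, and in 20 triple loss was at least 2-fold above it. Their median was 21.3 RPKM in Nanog + SoxB1 MO of the TUAB strain and 16.5 in MZpou5f1 alone. Because these genes were chosen for a high ratio, a low amanitin value is partly built in. Among all 7027 stored messages with introns under the minimum at 4 hpf, amanitin was at least 2-fold below WT at 2 hpf in 1474, and triple loss at least 2-fold above it in 217.

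The oocyte list had 5 of 21 genes past 4-fold at 4 hpf and 2 of 22 at 6 hpf, and limma called 7 of 22 higher. BTG4, which directs removal of poly(A) tails in the oocyte, was at 420.2 RPKM in WT at 2 hpf and 185 at 4 hpf, and at 71 in amanitin and 729 in triple loss at 4 hpf. ZAR1L, of the zygote arrest family, was at 563, 283, 62.3 and 546 in the same order, and slbp2, the oocyte histone mRNA-binding protein, at 299, 155, 62.5 and 298. All 3 were lower in amanitin than in WT and higher in triple loss, and their introns were at 1.92, 0 and 0.044 RPKM in triple loss, with BTG4 introns listed at 0 in amanitin and WT. By 6 hpf BTG4 had come down to 29.6 in amanitin and 131 in triple loss (limma adjusted p 0.00101), with WT at 4.36 to 5.66.

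Outside the zygotic sets, the largest ratios at 4 hpf mixed new transcripts and stored ones. IP6K2, an inositol phosphate kinase, was at 0.421 RPKM in amanitin and 20.3 in triple loss, with introns of 0 and 7.47 (WT 2.44). MAP3K8, a kinase of the stress pathway, was listed at 0 and was at 7.08, with introns of 0.008 and 4.99 (WT 0.491). By contrast thy1, a surface glycoprotein gene with 386 RPKM stored, was at 26.2 and 402 with introns listed at 0 in both, and zgc:171699 was at 0.128 and 31 with WT listed at 0.

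Among the 10 largest ratios outside the set at 6 hpf, YY1, a zinc finger factor gene, was at 0.809 RPKM in amanitin, 83.3 in triple loss and 132 to 149 in WT, with introns of 0.542 and 7.96 (WT mean 10.2, limma adjusted p 9.47e-06 for exons). SLC3A2, the heavy chain of amino acid transporters, was at 0.888, 98.2 and 323 to 371 (adjusted p 1.45e-05), the kinase gene pim2 at 0.705, 70.5 and 45.5 to 47.5 (adjusted p 8.63e-06), and ARRDC3, an arrestin-domain gene, at 0.393, 38.8 and 13.3 to 17.7 (adjusted p 5.76e-05). The entry zgc:163061 was at 4.03 in amanitin and 406 in triple loss in total RNA (WT 144 to 202) but at 5.52 in poly(A) RNA of triple loss.

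Among entries lower in triple loss, 49 at 4 hpf and 57 at 6 hpf were stored messages with introns under the minimum in both libraries. Median exon levels of the 49 were 11.8 RPKM in amanitin, 0.625 in triple loss and 2.24 in MZpou5f1 alone, and those of the 57 were 17.4, 1.25 and 1.2. After pou5f3 (log2 difference -6.78 ± 0.19 at 6 hpf, limma adjusted p 9.47e-06), the lowest ratios at 4 hpf included SPPL2B, a membrane protease gene (0.182 RPKM against 34.1 in amanitin, WT 29.4), GANAB, a glucosidase of the endoplasmic reticulum (0.148, 28.5 and 12), and NDRG1 (0.175, 18.4 and 59.4). In the rescued triple loss, also of the MZpou5f1 line, NDRG1 was at 0.083 RPKM, and SPPL2B and GANAB were at 10.2 and 12.1. Strain-separated genes had each other MZpou5f1 library at least 2-fold to one side of each TUAB library of WT or morpholino embryos. This used 4 against 5 total RNA libraries at 4 hpf and 2 against 6 at 6 hpf, without amanitin and cycloheximide. Of the 154 lower calls at 4 hpf 32 (20.8%), and of the 167 at 6 hpf 34 (20.4%), were such genes. The shares of all tested entries were 0.827% and 0.666%. Among higher calls 46 of 769 (5.98%) at 4 hpf and 46 of 1825 (2.52%) at 6 hpf were such genes, against 2.11% and 0.659% of tested entries, and of the 73 and 446 zygotic genes kept 0 and 3. The strain, the mutant line and the loss of the factors cannot be told apart in these stored messages.

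Clearance of maternal messages is the other side of the transition. The 2431 genes with 5 RPKM or more in WT at 2 hpf and at least 4-fold less at 6 hpf were at a median log2 difference of 0.22 between triple loss and amanitin (0.29 over all entries), with 29 past 4-fold lower (1.19%, against 1.15% of all entries) and 118 higher (4.85%, against 12.5%). Their median was 22.6 RPKM in WT at 2 hpf and, at 6 hpf, 2.73 in WT, 11.4 in triple loss and 9.28 in amanitin. The WT fall is set by the rule. At the median triple loss and amanitin both stayed above WT, so their small difference does not mean that the messages were cleared. Limma called 127 of 2418 of these genes lower and 367 higher, against 5.54% and 20.9% of all fitted entries. The 80 genes cleared by 4 hpf by the same rule had 5 past 4-fold lower (6.25%) and 20 higher (25%), against 1.13% and 5.63% of all tested entries. Their median difference was 0.94 (0.16 over all entries). Median levels were 13.9 RPKM in WT at 2 hpf and, at 4 hpf, 1.81 in WT, 8.40 in triple loss and 3.39 in amanitin. The mir-430 hairpin was at 0.207 RPKM in triple loss, 0.489 in amanitin and 42.7 in WT (mean of 3) at 6 hpf.

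Levels in the other conditions described the 3 zygotic classes (kept, between and lost) further, though triple loss and amanitin defined them. At 4 hpf the median of the 73 kept genes was 5.60 RPKM with Nanog MO alone, 4.38 with Nanog + SoxB1 MO, 6.73 with MZpou5f1 and Nanog MO and 4.75 in triple loss. For the 123 lost genes the same medians were 1.57, 0.376, 0.263 and 0.185. WT medians were 15.3 and 10.8, and MZpou5f1 alone 24.7 and 4.94. Under cycloheximide, which blocks translation, they were 2.49 and 0.955. The 446 kept genes of 6 hpf had a median of 13.2 to 14.8 in WT, 12.9 in MZpou5f1, 6.30 in triple loss and 1.24 under cycloheximide, and the 305 lost genes 12.5 to 16.2, 5.88, 0.210 and 0.339.

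**Figure D5:**
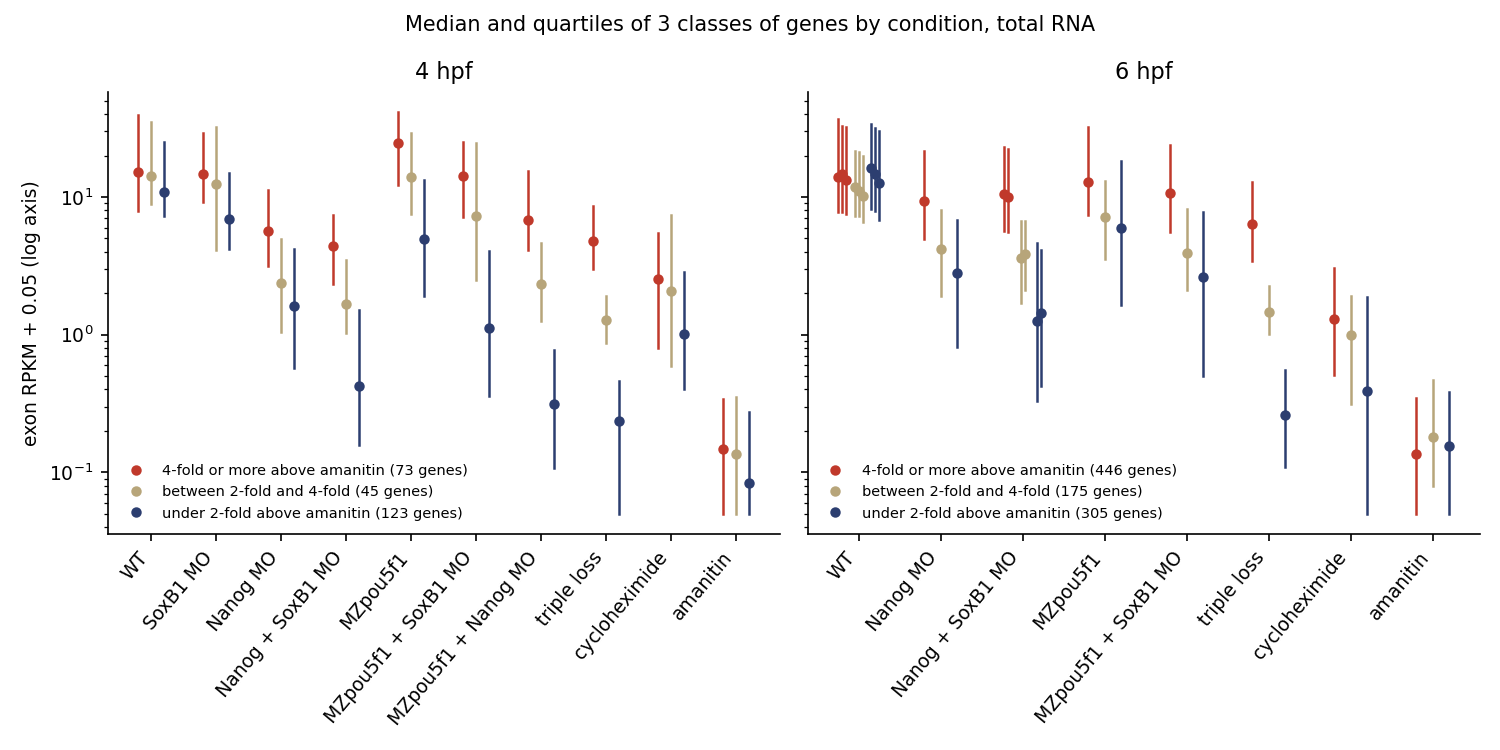
Median (point) and quartiles (line) of exon RPKM + 0.05 (log axis) of genes kept (red), between (tan) and lost (blue) in triple loss against amanitin, in each total RNA condition at 4 and 6 hpf, 1 mark per library. The classes were defined from the triple loss and amanitin columns; the kept and lost medians at 4 hpf are 15.3 and 10.8 in WT and 4.75 and 0.185 in triple loss, and they also lie apart under SoxB1 MO (14.8 and 6.89) and cycloheximide (2.49 and 0.955).

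Introns gave a measure that did not define the classes, in the same libraries. At 4 hpf 43 of the 73 kept genes had introns at 0.5 RPKM or more in WT, of which 29 were past 4-fold above amanitin and 5 were under 0.1 RPKM in triple loss. For the 123 lost genes it was 89, of which 5 were past 4-fold and 63 under 0.1. At 6 hpf 203 of 295 kept genes with WT introns were past 4-fold, and 5 of 228 lost genes, of which 186 were under 0.1. Fewer kept than lost genes had an intron entry at all at 4 hpf (52 of 73, 71.2%, and 104 of 123, 84.6%).

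From 4 to 6 hpf the kept zygotic genes grew in number, and most of the early zygotic ones stayed past 4-fold. Of all 769 exon entries past 4-fold at 4 hpf 431 (56.0%) were past it at 6 hpf, against 1825 of all 27151 exon entries. The 431 are 23.6% of the 1825. Of the 241 zygotic genes of 4 hpf, 128 were past 4-fold at 6 hpf, among them 67 of the 73 (91.8%). Of the 123 genes under 2-fold at 4 hpf 28 (22.8%) were past 4-fold by 6 hpf. For introns 1928 genes were called at both stages, 81.5% of those at 4 hpf. Of all 24124 intron entries 4259 were called at 6 hpf. The 89.5% given above is over introns at the minimum at 6 hpf only, and so is not the share to set beside the 81.5%.

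A joint limma fit of 23 total RNA libraries tested whether the difference itself changed with stage. No group at 4 hpf had a replicate, so the spread came from WT and Nanog + SoxB1 MO at 6 hpf (3 residual degrees of freedom). The 4 hpf libraries were assumed to vary like these. It called 128 of 17129 entries with a larger difference at 6 hpf (0.747%) and 4 with a larger one at 4 hpf (0.0234%). Cldnb was at 0.05 RPKM in amanitin and 1.56 in triple loss at 4 hpf, and its difference grew by 6.01 ± 0.43 on the log2 scale by 6 hpf (adjusted p 0.0286). B3GNT5, a glycosyltransferase gene, was listed at 0 in amanitin and was at 0.046 in triple loss at 4 hpf, and at 0.236 and 43.5 at 6 hpf. In WT, cldnb was at 6.16 RPKM at 4 hpf and a mean of 82.1 at 6 hpf, and B3GNT5 at 0.034 and a mean of 109.

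The 4 entries with a larger difference at 4 hpf were gbgt1l4, si:ch211-166a6.5, irx7 and UBE2T. The homeobox gene irx7 was at 4.17 RPKM in triple loss against 0.382 in amanitin at 4 hpf, and at 1.39 against 1.78 at 6 hpf (-2.68 ± 0.34, adjusted p 0.0459), with WT at 82 and 70.7. UBE2T, a ubiquitin-conjugating enzyme gene, was at 77.5 against 8.34 and then at 22.2 against 8.29. These calls rest on each replicate: with any 1 of the 3 WT or 2 Nanog + SoxB1 MO libraries left out, limma called 0 entries in either direction, while 2551 to 3569 had an unadjusted p under 0.05 and the smallest adjusted p was 0.0753 to 0.196. Each of these fits left the stage difference of an entry as it was and had 2 residual degrees of freedom in place of 3. The loss of calls therefore does not show that the differences depend on a particular library. No other tool was run on the stage difference.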

How the data were processed

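Total RNA of pooled whole embryos was measured. The authors deposited exon and intron values in RPKM, with 1 column per library. Reads had been handled with TopHat2 2.0.7, Bowtie 0.12.9 and CASAVA 1.8.2 on build Zv9 (danRer7), per the submitters' processing notes, which give no roles here. The library total behind RPKM is not given in the sources used here. Joined entries (846 exon, 626 intron) were left out. Symbols matched 72.9% of exon and 75.5% of intron entries.

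Folds were taken on log2(RPKM + 0.5) for exons and log2(RPKM + 0.1) for introns, among entries at 1 and 0.5 RPKM in either library. At 4 hpf each group had 1 library, so a 4-fold rule was used and no test. At 6 hpf limma 3.58.1 (R 4.3.3; lmFit, eBayes with trend, group means, Benjamini-Hochberg, 2-sided) took 11 libraries with 3 residual degrees of freedom and entries at the minimum in at least 2 libraries. The stage test took 23 libraries, with replicates at 6 hpf only. Of the fits only the 6 hpf exon fit was tried on simulated data. Its noise was drawn from the spread of the replicates, so it does not check whether the single libraries vary like these. Intervals cover set size only.

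Named genes were, per stage, the 15 zygotic genes with the largest ratio, the 10 most abundant under 2-fold, the 10 largest ratios each way outside the set, the 10 intron ratios of stored-message genes, the stage calls, and members of the role lists. Members, lists and sets were chosen with earlier results of these data known. The counts of 1 list are not reported here. Other pseudocounts, minimums, folds, centring and left-out replicates were tried. The alternative without strain-separated entries was chosen after seeing the data.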

Additional observations from a re-analysis of the deposited data

Results flagged for a closer look

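The entries below were flagged because a joint limma fit found the log2 exon difference between triple loss and amanitin to differ between 6 and 4 hpf (Benjamini-Hochberg adjusted p under 0.05). The values are the difference at 6 hpf minus that at 4 hpf, with 1 triple-loss and 1 amanitin library per stage. The spread of the fit came from replicates at 6 hpf only. None of these calls remained when any 1 of the 5 replicate libraries was left out.

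The claudin genes cldnb, cldn3d and cldne were at 6.01, 5.14 and 4.16, and the glycosyltransferase gene B3GNT5 at 5.77. Sesn3, a stress-induced sestrin gene, was at 5.84, and DDIT4 at 1.77. Tbl1xr1a, part of a corepressor complex, was at 5.31, MSANTD1 at 5.04, the bicarbonate transporter gene slc4a10a at 4.91, CRTAP, a collagen-modifying protein gene, at 4.84, and SLC3A2 at 4.00. Among genes kept at both stages, akap12b was at 3.20, histh1l1 at 3.06, noto at 2.29, krt18a.1 at 1.89 and IER5 at 1.78. Ftr82 was at 3.82, the kinase gene pim2 at 3.10, YY1 at 3.00 and mid1ip1a at 2.92. Entries without a descriptive name were zgc:193505 at 5.38, si:dkey-262g12.9 at 4.84, si:dkey-108k21.10 at 4.22, zgc:163061 at 4.21 and si:ch211-222l21.1 at 2.08. The difference was larger at 4 hpf for gbgt1l4 at -3.04, si:ch211-166a6.5 at -2.98, irx7 at -2.68 and UBE2T at -1.77.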

How the results depend on the processing

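No single gene run under the alternatives reversed, which was largely fixed by construction. With no filter, in the joint fit or with a replicate left out, the log2 difference stays the same. For SOX2 at 6 hpf it was 1.596 with no filter and in the joint fit. A changed pseudocount keeps the sign (1.092 for SOX2 with it doubled). Only centring is able to change a sign, with a median shift of -0.19 in the 6 hpf exon fit (1.405 for SOX2). The absence of reversals is therefore no evidence of robustness. At 6 hpf, of the alternatives run on single genes, 2691 kept their side of the limma threshold, 138 lost it and 39 gained it. At 4 hpf, with no replicates, 59 moved by at most the median residual SD of the 6 hpf fit (0.246 on the log2 scale) and 76 by more. No paired analysis was possible because triple loss and amanitin have 1 library per stage and no replicate number.

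Exon entries higher at 4 hpf (769) were 1226 with the smaller pseudocount (0.1), 502 with it doubled, 2977 at 2-fold and 1608 as limma calls of the joint fit, and lower ones (154) were 289, 99, 918 and 511, and 96 with the stricter minimum. At 6 hpf higher entries (1825) were 1174 with the pseudocount doubled, 1100 with the stricter minimum and 4399 at 2-fold, and lower ones (167) were 92, 97 and 1026, and 285 with the smaller pseudocount (0.1). Higher introns were 604 (of 2366) at 4 hpf and 1006 (of 4259) at 6 hpf with the stricter minimum. The zygotic exon set above amanitin at 4 hpf (73) was 120 with the smaller pseudocount (0.1) and 118 at 2-fold. With a higher WT minimum, which makes the sets smaller, 280 of 562 (exons, 6 hpf) and 1132 of 1493 (introns, 4 hpf) were above. The maternal cleared set below amanitin (29) was 46 with the smaller pseudocount (0.1), 19 with it doubled and 190 at 2-fold.

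Centring on stored messages removes, by construction, the shift that introns of these genes share. It left 1349 higher introns at 6 hpf, 1218 of the intron set, and 1554 higher and 243 lower limma intron calls. It gave 1602 lower limma exon calls, and 250 and 22 stage differences. Without a filter limma called 365 introns lower and 1200 and 666 stage differences. Leaving out 1 replicate gave 2572 to 3777 higher and 444 to 1284 lower exon calls, 5028 to 5294 higher and 24 to 30 lower intron calls, and 0 stage differences in each direction. Apart from the values explained by construction, the cause was not tested. Absolute depth is unknown, and of the 4 libraries compared amanitin at 6 hpf had the lowest relative depth (0.582).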
